A study of Mus musculus with 2 samples.

Results

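Mir103-1, Mir103-2 and Mir107 are the mouse microRNA (miRNA) genes that lie in introns of pantothenate kinase genes, and they were described here in whole thymus of newborn mice. They were chosen by symbol and position, not by their counts, although earlier results of these data were known. They are 3 of the 1973 miRNA genes listed in the deposited tables. The tissue was both thymus lobes of pups of the strain B6NCrl on postnatal day 0, from 2 pups of 1 pregnancy, with 1 small RNA library per pup (fragments below 30 bases, per the labels). Replicate 1 was pup 2 and replicate 2 was pup 3. The labels give no treatment, no altered allele and no sex, and both pups carry the same donor identifier. All libraries belong to 1 group, so the data give levels in the tissue and the spread between littermates, with no contrast of conditions. In whole thymus, fewer cells of a type and less RNA per cell cannot be told apart.

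Pantothenate kinases carry out the first committed step in the synthesis of coenzyme A, the carrier of acyl groups in fat and energy metabolism, from pantothenate (vitamin B5). A miRNA gene in an intron is often, but not always, transcribed with its host gene. Its hairpin is cut from the transcript, and either strand of the stem can become a mature miRNA of little over 20 bases, named 5p or 3p by its arm. The mature strand pairs with target messages mainly through its seed, bases 2 to 8, and lowers their output. In mouse liver and fat tissue, miR-103 and miR-107 are known as regulators of insulin sensitivity.

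The hairpins show how alike the genes are and which bases can tell their reads apart. Below, from RefSeq on GRCm38.p6, capitals mark the annotated mature arms, the 5p arm first.
Mir103-1: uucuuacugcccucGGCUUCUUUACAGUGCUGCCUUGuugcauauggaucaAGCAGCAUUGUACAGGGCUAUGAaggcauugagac
Mir103-2: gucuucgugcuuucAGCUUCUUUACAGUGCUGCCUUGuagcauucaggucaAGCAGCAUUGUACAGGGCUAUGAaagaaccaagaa
Mir107: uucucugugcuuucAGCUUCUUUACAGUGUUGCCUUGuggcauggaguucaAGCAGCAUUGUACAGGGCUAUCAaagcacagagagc

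The mature strands are shown again with the seed in capitals. The 3p strand of both Mir103 genes is 1 and the same, so the name miR-103-3p covers 2 loci.
miR-103-3p: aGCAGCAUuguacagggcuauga
miR-107-3p: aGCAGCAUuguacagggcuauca
miR-103-1-5p: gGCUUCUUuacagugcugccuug
miR-103-2-5p: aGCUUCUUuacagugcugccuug
miR-107-5p: aGCUUCUUuacaguguugccuug

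All 3 genes lie in the intron that follows the fifth exon of the host, in a principal host transcript of 7 exons, and on the strand of the host. Mir103-1 (ENSMUSG00000065553.1, chr11:35782396-35782481, plus strand) lies in intron 5 of Pank3, 688 bases past the upstream exon in an intron of 1740 bases. Mir103-2 (ENSMUSG00000065563.1, chr2:131288052-131288137, plus strand) lies in intron 5 of Pank2, 454 bases past the upstream exon in an intron of 5801 bases. Mir107 (ENSMUSG00000065594.1, chr19:34820687-34820773, minus strand) lies in intron 5 of Pank1, 326 bases past the upstream exon in an intron of 7282 bases. In each case the miRNA gene lies nearer to the upstream than to the downstream exon. None of the 3 overlaps an annotated gene other than its host, and no miRNA gene of the tables lies in Pank4, the remaining gene of this name. These are GRCm38 positions of GENCODE M21. The hosts' own messages were not measured in these libraries.

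The count tables held 10642220 reads for replicate 1 and 4892171 for replicate 2, and 2734133 and 1289151 of these fell on the strand of a miRNA gene. Reads that mapped to several places were tallied apart from the genes and made up 56.3% of the reads in replicate 1 (95% Wilson interval 56.285 to 56.345) and 57.5% in replicate 2 (57.459 to 57.546). Levels are given as counts per 1000000 gene-strand counts (CPM), and the upper limit set by a count of 0, which is 3 counts, equals 1.10 CPM in replicate 1 and 2.33 CPM in replicate 2. Intervals and limits cover counting error only, since the labels describe no molecular identifiers. Counts differed between the libraries beyond sampling noise (chi-square 27452, 683 degrees of freedom), and the libraries were counted as 2 samples. The tissue label was checked against marker miRNAs. The 4 lymphocyte miRNAs summed to 46137 and 44674 CPM, the 3 epithelial ones to 28564 and 28464, and the 5 mesenchymal ones to 45673 and 60569, while the 4 neural ones summed to 58.2 and 84.6. Most of the lymphocyte sum came from Mir181a-1, at 37220 and 36043 CPM, and most of the mesenchymal sum from Mir143, at 42989 and 57301. The neural counts all came from Mir137, and the 3 Mir124a genes, which share their mature strand, had 0 counts in both libraries. The 4 heart and skeletal muscle miRNAs summed to 486 and 664 CPM, and the liver miRNA Mir122 had 77.9 and 120. Mir208b of the muscle list had 60 counts in replicate 1 and 238 in replicate 2, and Mir499 had 32 and 44. Mir206, which gave most of the CPM of this list, had 445 and 442 CPM, and Mir133b had 19 and 4 counts. Counts of miRNAs typical of other tissues were thus present, and some were unequal between the pups, in either direction.

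Mir107 was the most highly counted member in both libraries, Mir103-2 followed about an order of magnitude lower, and Mir103-1 was close to the lower limit. Mir107 had 2297 counts in replicate 1 and 977 in replicate 2, or 840 CPM (exact Poisson 95% interval 806 to 875) and 758 CPM (711 to 807). Mir103-2 had 291 and 87 counts, or 106 CPM (94.6 to 119) and 67.5 CPM (54.1 to 83.2). Mir103-1 had 13 and 8 counts, or 4.75 CPM (2.53 to 8.13) and 6.21 CPM (2.68 to 12.2). The intervals of the 3 genes did not overlap in either library, so the order was the same in both pups. Means over the libraries were 799 ± 58.2 CPM for Mir107, 87.0 ± 27.5 for Mir103-2 and 5.48 ± 1.03 for Mir103-1 (SD, n = 2 each). The annotated genes are 86, 86 and 87 bases long for Mir103-1, Mir103-2 and Mir107, so length hardly bears on the order. Per base of gene, Mir107 had 9.66 and 8.71 CPM, Mir103-2 1.24 and 0.785, and Mir103-1 0.0553 and 0.0722.

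**Figure D1:**
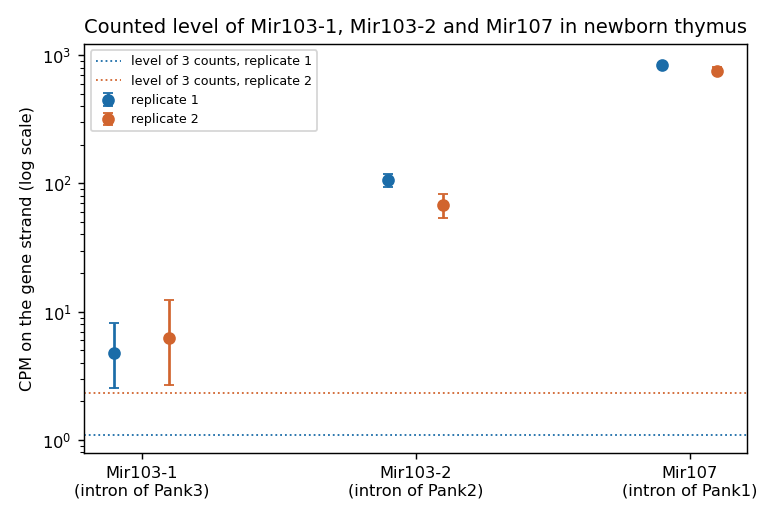
Level of each gene in CPM on the gene strand (log axis) in replicate 1 and replicate 2. Bars are exact Poisson 95% intervals and dotted lines the level of 3 counts; the 3 genes stand apart in both libraries, and the lower end of the Mir103-1 interval comes near to the line in replicate 2.

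Among the 1973 genes, Mir107 ranked 101st in replicate 1 and 106th in replicate 2 by count, and 100th and 104th by count per base. Mir103-2 ranked 182nd and 199th by count, and Mir103-1 317th and 304th. For comparison, 294 genes reached 10 counts in each library and are called detected, with a median of 239 CPM. Of these, 102 lie in an intron of a protein-coding gene on the same strand, with a median of 451 CPM. Mir107 thus lay above and Mir103-2 below both medians. Mir103-1 missed the minimum with its 8 counts in replicate 2, so 2 of the 3 members counted as detected.

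No reads were counted on the opposite strand of any of the 3 genes in either library. Of the 294 detected genes, 272 likewise had none there. The column without strand therefore gave the same counts for the members.

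Together the 3 genes had 2601 counts in replicate 1 and 1072 in replicate 2. This was 0.0951% (95% Wilson interval 0.0915 to 0.0989) and 0.0832% (0.0783 to 0.0883) of the gene-strand counts, with a mean of 0.0891% ± 0.00847 (SD, n = 2). Mir107 supplied 88.3% (87.0 to 89.5) and 91.1% (89.3 to 92.7) of the sum. Mir103-2 supplied 11.2% (10.03 to 12.5) and 8.12% (6.63 to 9.90), and Mir103-1 0.500% (0.292 to 0.853) and 0.746% (0.379 to 1.47). Hence most counted reads of the group came from the gene in Pank1. Mir107 exceeded Mir103-2 by 7.89 times (exact 95% interval 6.98 to 8.95) in replicate 1 and 11.2 times (9.01 to 14.1) in replicate 2. Mir103-2 exceeded Mir103-1 by 22.4 times (12.9 to 42.5) and 10.9 times (5.28 to 26.0).

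These levels are of counted reads and cannot rank the mature strands, because the members share sequence and reads with several places in the genome were left out of the gene counts. The following compares sequences by exact match. miR-107-3p differs from miR-103-3p by G22C, counted from base 1 of the mature strand and written from miR-103-3p to miR-107-3p. A read that begins at base 1 of miR-107-3p matches all 3 hairpins until it is 22 bases long. A read that begins at base 1 of miR-103-3p matches both Mir103 hairpins until it is 25 bases long, which is longer than the 23 bases of the mature strand. A whole miR-103-3p read therefore matches Mir103-1 and Mir103-2 equally, whereas a whole miR-107-3p read matches Mir107 alone among these hairpins.

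The 5p strands differ by 1 base between neighbours. miR-103-1-5p and miR-103-2-5p differ by G1A, and miR-103-2-5p and miR-107-5p differ by C16U. A 5p read from base 1 was found in no other hairpin from 16 bases on for Mir103-2 and Mir107, and already at 15 bases, the shortest length tried, for Mir103-1. If such a read begins 1 base later, those of Mir103-1 and Mir103-2 match each other until they are 24 bases long. The tables do not separate the arms, so how the counts of a gene divide between its 5p and 3p strands was not measured.

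Across the whole hairpin, Mir103-1 and Mir103-2 were identical at 69 of 86 positions, Mir103-1 and Mir107 also at 69, and Mir103-2 and Mir107 at 73. Mir103-2 is thus nearer to Mir107 than to the other Mir103 gene, although the whole 3p strand is shared by the Mir103 genes. The loop of 14 bases between the arms was identical at 9 positions for Mir103-1 and Mir103-2, at 9 for Mir103-1 and Mir107, and at 10 for Mir103-2 and Mir107. Of the 20-base windows of each hairpin, 55 of 67 in Mir103-1, 51 of 67 in Mir103-2 and 59 of 68 in Mir107 occurred in no other of 1005 RefSeq mouse hairpins. Mir103-1 has more such windows than Mir103-2 and fewer counts. The windows also cover the flanks and the loop, so their number does not show how many mature reads are unique to a gene. The genome outside these hairpins was not searched. The part of shared sequence in the differences between the members' levels was not tested.

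**Figure D2:**
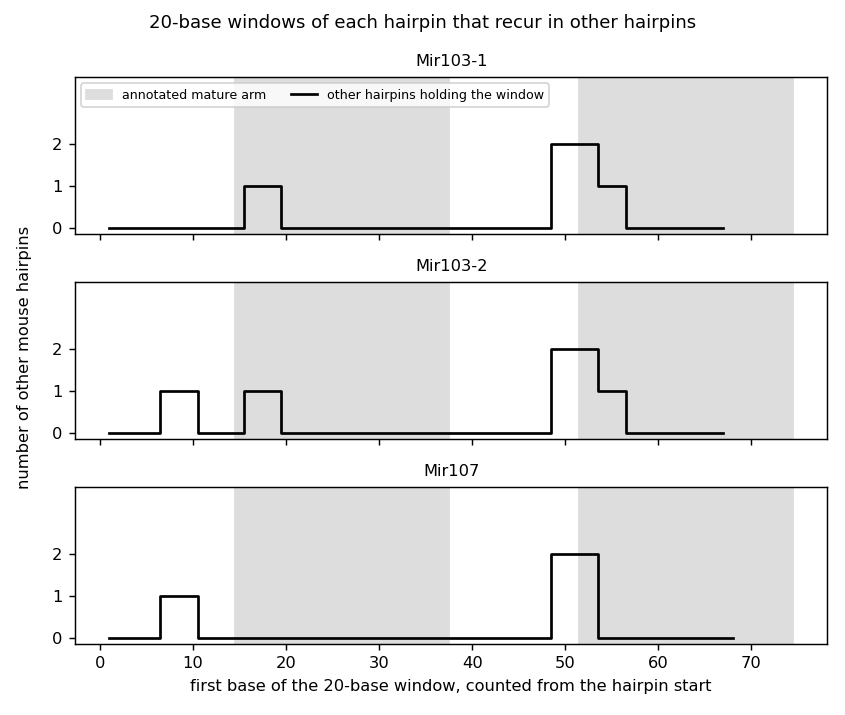
Number of other mouse hairpins that hold each 20-base window of the Mir103-1, Mir103-2 and Mir107 hairpins, by the first base of the window. Grey marks the annotated mature arms; windows that start just before or in the first bases of the 3p arm occur in 2 other hairpins for all 3 genes, and those that start slightly later occur in 1 other hairpin for the Mir103 genes and in none for Mir107.

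Other miRNA genes with numbered copies show how far copies can differ in these counts. A list of such genes, which also holds the lettered genes Mir101a and Mir101b, had 48 in the tables. Of these, 34 were detected, with a median of 202 CPM. The highest levels were those of Mir181a-1, a thymocyte miRNA, at 36632 ± 832 CPM and Mir16-1, a brake on the cell cycle, at 17585 ± 981. Mir194-1 was the least counted of the 34, at 7.35 ± 0.571 CPM. In 18 pairs of copies with counts for both in each library, Mir103 included, of which 17 had RefSeq hairpins and all 17 shared a whole mature arm, the ratio of the higher to the lower copy averaged between 1.09 for Mir138 and 212 for Mir181a. By mean ratio the Mir103 pair, with 16.6 ± 8.14 (SD, n = 2), ranked 5th. In replicate 2 alone, the Mir194 pair at 14.7 exceeded the Mir103 pair at 10.9. The Mir103 hairpins hold a longest identical stretch of 27 bases, while those of Mir181a hold 28, those of Mir16 23 and those of Mir138 24. The mean ratios of Mir181a, Mir16 and Mir138 were 212, 5.53 and 1.09. The ratio of the Mir103 pair was inside the range of other copies, and numbered copies were both among the highest and among the lowest genes. These ratios rest on the counted reads only, without reads that mapped to several places. The part of shared sequence in them was not tested. Over all 858 counted genes with mature arms placed in a RefSeq hairpin, 41 of 99 with a mature arm found whole in another hairpin were detected, with a median of 115 CPM, against 213 of 759 without, with a median of 295 CPM. Both Mir103 genes belong to the first set and Mir107 to the second.

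**Figure D3:**
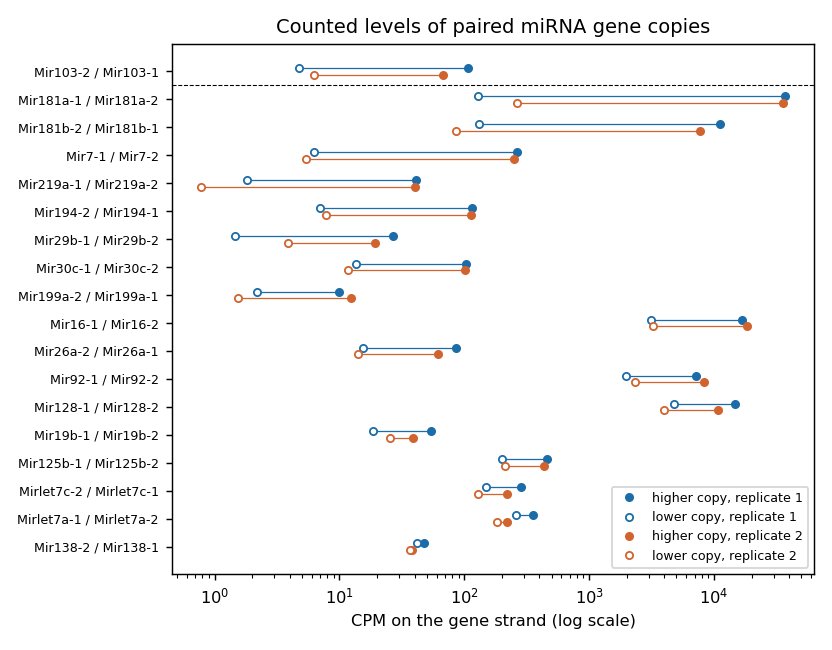
CPM on the gene strand (log axis) of the higher copy (filled) and the lower copy (open) of 18 pairs of numbered miRNA gene copies, in replicate 1 and replicate 2. The Mir103 pair stands in the top row, above the dashed line, with Mir103-2 at 106 and 67.5 CPM and Mir103-1 at 4.75 and 6.21; the other pairs are in order of their mean ratio.

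The 3p seed GCAGCAU was carried by no other gene. Among 1738 mature arms of 1058 mouse genes in RefSeq, 3 arms had it, those of the members, and the 5p seed GCUUCUU was likewise found in 3 arms of the same genes. The first 6 bases of the 3p strands, AGCAGC, occur within bases 1 to 8 of 15 arms, which include the miR-15 and miR-16 strands. The members and the miR-15 and miR-16 strands belong to what is known as the group of miR-15 and miR-107, but not all 15 arms are listed in it. In the 3 members the 6 bases start at base 1, and in the other 12 of the 15 arms they start at base 2, so the seeds are shifted by 1 base. The strand of Mir107, the most counted member, and those of Mir15a and Mir16-1, the group genes with the highest mean CPM, show the shift, with the seed in capitals.
miR-107-3p: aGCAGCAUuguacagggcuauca
miR-15a-5p: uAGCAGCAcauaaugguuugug
miR-16-5p: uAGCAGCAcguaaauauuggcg

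Within this group the members held little of the counted reads, which leave out reads that mapped to several places. A whole miR-103-3p read matches both Mir103 hairpins, so the counted levels below do not rank the mature strands of the group. The 12 genes in the tables from a list of this group took 7.31% and 7.30% of the gene-strand counts. Of these, the 3 members supplied 1.30% in replicate 1 and 1.14% in replicate 2. Mir107, at 799 CPM, lay above Mir503 (383 ± 60.5 CPM) and Mir195a (365 ± 2.70) and below Mir16-2 (3178 ± 84.5), which were singled out as its neighbours after their values were seen. Per base of gene, Mir107 had 9.66 CPM in replicate 1 and 8.71 in replicate 2, Mir195a 3.90 and 3.86, and Mir16-2 32.8 and 34.1, and Mir503 again lay between Mir195a and Mir107. By mean over the libraries, Mir15a had 17873 ± 1534 CPM, Mir16-1 17585 ± 981 and Mir15b 17292 ± 1423 (SD, n = 2 each), which differed by less than their SD. Their order changed between the libraries, with Mir15b highest in replicate 1 at 18298 CPM and Mir15a highest in replicate 2 at 18957 CPM. All 3 are known to restrain the cell cycle. Mir103-2 was the least counted of the 9 detected group genes. Of the listed genes with 0 or few counts on the gene strand, Mir195b had 0 in both libraries and Mir497b had 2 and 0. Mir497b stood in the list but was not among the genes found by the search for AGCAGC. Mir497 was not found by symbol among the counted genes and is not part of the group sums. Mir6342, Mir6353 and Mir6419, found by the search for AGCAGC but not in the list, had 0 in both libraries.

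**Figure D4:**
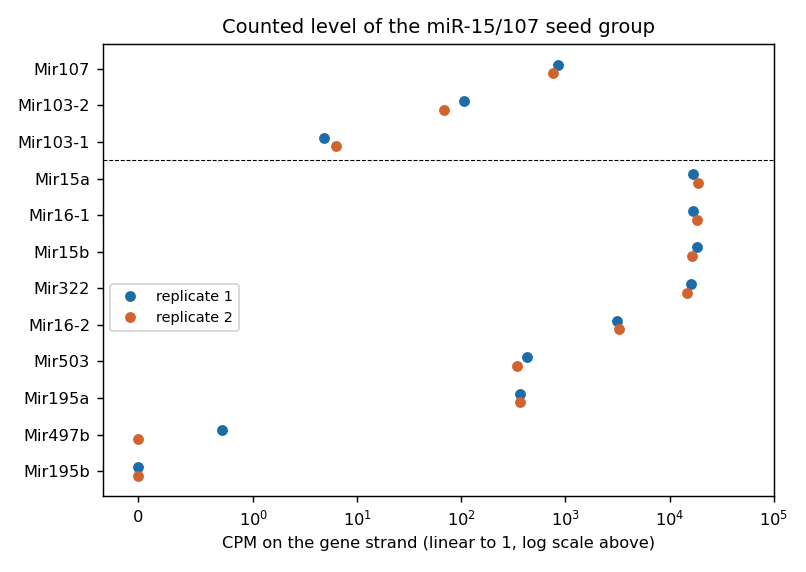
CPM on the gene strand of the genes listed for the miR-15 and miR-107 group in replicate 1 and replicate 2 (axis linear to 1, logarithmic above). The 3 members stand above the dashed line, with means of 799 CPM for Mir107, 87.0 for Mir103-2 and 5.48 for Mir103-1; of the other genes, Mir15a, Mir16-1, Mir15b and Mir322 are the highest, at 15474 CPM or more on average.

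A list of miRNAs known from lipid and glucose metabolism placed the members among genes with a like role in other tissues. Of its 11 genes in the tables, 10 were detected, and Mir107 with 799 CPM and Mir103-2 with 87.0 CPM lay below the median of 2265 CPM of these 10. Mir143, which is typical of smooth muscle and also bears on insulin signalling in mouse liver, led with 50145 ± 10120 CPM, and Mir335 followed with 17639 ± 625. Mir370 was the least counted detected gene of the list, at 38.7 ± 6.66 CPM. Several of these miRNAs have main sites outside metabolism, so the list's level says nothing of a metabolic role in thymus.

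Levels of Mir107 and Mir103-2 were higher in replicate 1 than in replicate 2, by more than counting error alone, whereas the few counts of Mir103-1 left its direction undecided. With scaling by edgeR's trimmed mean of M values (TMM), the log2 ratio (replicate 1 over replicate 2) of Mir107 was 0.21, with an exact 95% interval of 0.11 to 0.32 and an adjusted exact binomial p of 0.000276. That of Mir103-2 was 0.72, with an interval of 0.37 to 1.09 and an adjusted exact binomial p of 7.68e-05. For Mir103-1 the log2 ratio was -0.32 with an interval from -1.70 to 1.16, and it was not tested. This test called 128 of 294 genes, or 43.5%, so 2 of 2 tested members is read against a high background. It called 69 genes (23.5%) higher and 59 (20.1%) lower in replicate 1, and 52 higher and 72 lower when scaled to total counts. The ratio of Mir107 was close to the median absolute log2 ratio of 0.21 over all tested genes, whereas 18 of the 294 genes had a larger absolute ratio than Mir103-2.

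These p-values compare the pair of libraries by counting error only and say nothing of a condition. A negative binomial test in edgeR with the spread estimated over all genes (biological coefficient of variation 0.154) gave an adjusted p of 0.955 for Mir103-2 and 1 for Mir107, and called 1 of 294 genes, or 0.34%. The unadjusted p of this test was 0.0456 for Mir103-2 and 0.504 for Mir107. Its spread was estimated from the same 2 libraries that it compares, so the difference under test is part of that spread. The test therefore tends to call few genes and cannot decide whether the libraries differ. In the alternatives with the exact binomial test, the adjusted p ran from 9.44e-05 to 0.000435 for Mir103-2 and from 0.000148 to 0.0184 for Mir107. Dissection, library preparation and depth cannot be told apart from the pup.

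**Figure D5:**
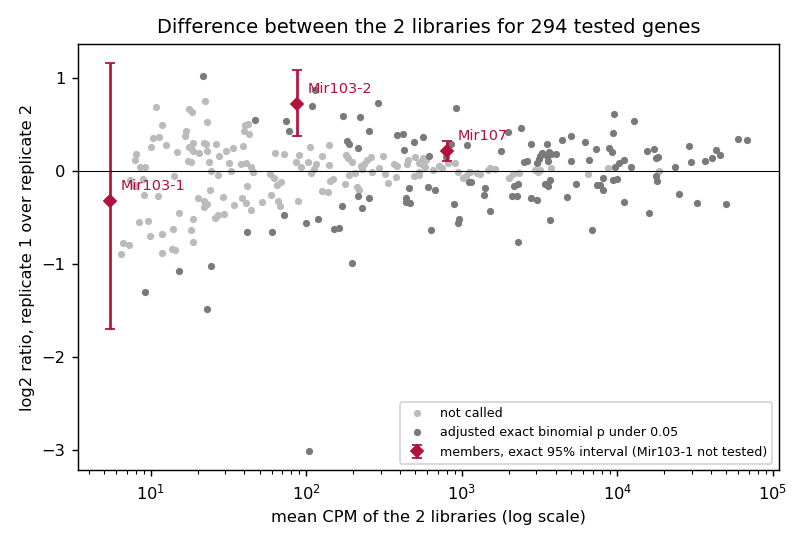
Log2 ratio of replicate 1 over replicate 2 against mean CPM (log axis) for 294 tested genes. Dark grey points passed the adjusted exact binomial test and light grey ones did not; red diamonds are the members with exact 95% intervals, of which Mir103-2 at 0.72 and Mir107 at 0.21 lie above 0 and the interval of the untested Mir103-1 spans 0.

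In the seed group, the exact binomial test called 5 of 9 tested genes higher and 2 lower in replicate 1, with a median log2 ratio of 0.21, beside 23.5% higher, 20.1% lower and a median of 0.03 over all 294. The members are 2 of these 9, and Mir103-2 had the largest ratio of the group. Of 34 tested genes of the list of numbered copies, 12 were higher and 5 lower, with a median of 0.18, beside the same background. Of 10 tested genes of the metabolism list, 4 were higher and 3 lower, with a median of 0.02. Scaled to total counts, the seed group had 5 higher and 2 lower, the numbered copies 10 and 5, and the metabolism list 3 and 3, with medians of 0.15, 0.11 and -0.05, beside 52 higher, 72 lower and a median of -0.04 over all 294. The negative binomial test called 0 genes of each list and 1 of all 294, with 15 of the 294 at an unadjusted p under 0.05.

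The genes most like Mir107 by level over the 2 libraries, measured as the Euclidean distance of log2(CPM + 1) among 293 other detected genes, were Mir34a at a distance of 0.05, Mir669o at 0.10 and Mir223, a granulocyte miRNA, at 0.14. Mir107 had 840 CPM in replicate 1 and 758 CPM in replicate 2, and Mir34a, which is activated by p53, had 811 and 765 CPM. The nearest to Mir103-2 were Mir190a at 0.29, Mir26a-2 at 0.33 and Mir1981 at 0.41. Mir190a had 87.0 and 67.5 CPM, and its 87 counts in replicate 2 equalled those of Mir103-2. With 2 libraries, such likeness reflects a similar level and little else. Mir103-1 was too low to enter this comparison.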

How the data were processed

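Small RNA libraries of whole thymus from 2 newborn littermates were analysed. Each library has a deposited table of unnormalized read counts for miRNA genes; per the text files that accompany them, the authors mapped to mm10 and used GENCODE annotation M4. For the aligner, counter and mismatch setting: not given in the sources used here. The third column, reads on the gene strand, was used. Multimapping, unmapped and unassigned totals (56.3%, 10.6% and 2.99% of reads in replicate 1, 57.5%, 9.17% and 2.57% in replicate 2) stayed out of library sizes.

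Of 1973 gene identifiers, 1894 matched GENCODE M21 (GRCm38), used for symbols and positions. RefSeq hairpins (GRCm38.p6) matched 869 counted genes and all 3 members. CPM used the gene-strand total. Genes that reached 10 counts in each library were compared between the libraries with exact binomial tests (two-sided) on TMM library sizes, with Benjamini-Hochberg adjustment over all of them at 0.05 (edgeR 4.0.16, R 4.3.3, scipy 1.17.1, Python 3.11.15). The script was tested on simulated data. With 1 group, no quasi-likelihood test applies. Shares have Wilson intervals, ratios and counts exact ones.

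The members and lists were chosen with earlier results of these data known. Named genes are the members, the 3 nearest genes to each detected member, and the 2 most and the least abundant detected gene of each list; others named were chosen after their values were seen. Alternatives were unstranded counts, DESeq2 1.42.0 size factors, total counts, minimums of 1 count in either or 100 in both libraries, a negative binomial test, each library alone and another denominator.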

Additional observations from a re-analysis of the deposited data

Results flagged for a closer look

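Within the list for the group of miR-15 and miR-107, reads were counted on the strand opposite to Mir497b, which the comparisons above do not use. Mir497b itself was not among the genes found by the search for AGCAGC. These opposite-strand reads numbered 836 in replicate 1 and 379 in replicate 2, against 2 and 0 on the gene strand. Mir497, a miRNA of this group whose seed is shifted by 1 base from that of the members, is annotated on that opposite strand in GENCODE M21. No counted gene was found under the symbol Mir497 or Mir497a, so no count of it is given here. The members had 0 counts on the opposite strand in both libraries.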

How the results depend on the processing

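The log2 ratios of Mir103-2 and Mir107 between the libraries stayed above 0 and past the threshold with unstranded counts, both other scalings and the looser minimum, and Mir107 also with the stricter one. With the negative binomial test they were 0.72 and 0.21 and no longer passed. That test called 1 gene in all, 0 higher and 1 lower in replicate 1, with 15 at an unadjusted p under 0.05, against 142 for the exact binomial test. Its spread came from these same 2 libraries, so its few calls decide nothing about their difference. Mir103-1 stayed between -0.38 and -0.30, within its interval. Mir103-2 and Mir103-1 gave no value with 100 counts in both libraries, nor Mir103-1 with the negative binomial test, because they miss the minimum. The summed share was 0.0762% with unstranded counts and 0.0232% of all reads, since these denominators are larger, and ranged from 0.0832% to 0.0951% with either library left out. Shares within the sum and the nearest genes were unchanged with unstranded counts. No paired analysis was possible because there is 1 group. Depth limits Mir103-1 most, at 13 and 8 counts.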
